A study of Homo sapiens with 22 samples.

Results

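WM983B melanoma cells were profiled by droplet scRNA-seq without any treatment, and the authors' cell labels divide this library into 4 clusters. Cluster 0 is the largest of them and was taken as the labels give it, with 640 of the 1449 cells, among 54001 cells in all 3 single-cell experiments of the study. WM983B is a human melanoma line, and the cells used were a clone taken through successive rounds of single-cell isolation, so that they stand for 1 clone of 1 line. The labels call clusters 0 and 2 primed and clusters 1 and 3 nres, a term they do not spell out. Cluster 1 holds 628 cells, cluster 2 holds 91 cells and cluster 3 holds 90 cells. WM989, another melanoma line, served for side-by-side values, as 9688 untreated drug-susceptible cells, 3 untreated primed clusters and cluster 12 of a treatment experiment with 8 libraries and 4 treatments (Control, TGFB1, TGFBRi and PI3Ki). Each treatment has 1 library labelled Mix and 1 labelled Primed (MixControl and PrimedControl, for example), while the deposited cell table names r1 and r2 and the methods describe parallel samples, so no cell could be placed under Mix or Primed.

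There is 1 WM983B library, so no value has a replicate check and no test was made. Values are unique molecular identifiers (UMIs) summed over the cells of a cluster and scaled to 1000000 UMIs per cluster (CPM), with exact Poisson 95% intervals that cover counting error only. The clusters had been drawn from the same counts, so every difference between them is a description. Cells held between 33538 and 180248 UMIs. The median was 63102.5 UMIs in cluster 0, 70605.5 in cluster 1, 68760 in cluster 2 and 84240 in cluster 3. To compare shares of cells, each cell was thinned to 30000 UMIs, and no cell was too shallow for this. Only 7 and 11 of the 1449 cell barcodes recurred in the untreated and treated WM989 experiments.

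In melanoma, the primed state denotes rare cells that go on to survive targeted therapy. It is marked by surface proteins such as NGFR, AXL and NT5E and by low levels of the pigment cell program that MITF controls. Cells labelled primed were not rare in this library, where cluster 0 alone held 44.2% of the cells. Interferons are secreted antiviral proteins that signal through receptors on the cell surface. They switch on a broad set of interferon-stimulated genes, among them the IFIT and OAS families, many of which carry an interferon-stimulated response element (ISRE) near their start. Chemokines such as CCL5 and CCL2 are secreted proteins that attract leukocytes, and CCL5 can be induced through the same antiviral sensors. CCN1 and THBS1 are secreted matrix proteins that respond to the mechanosensitive YAP and TEAD transcription factors.

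Promoters of 3 interferon genes above every other cluster, and of CXCL10, which was high in a few cluster 0 cells, are shown because they hold the ISRE core. RefSeq sequences on GRCh38.p14, from 250 bases before to 50 bases after each start, were found for 23 of the 36 genes described below as higher than in every other cluster. The ISRE core was searched on both strands as GAAA, any 2 bases and GAAA again, overlaps allowed, and matches are in capitals. IFIT1 lies at chr10:89392373-89392672 (+), IFIT3 at chr10:89327747-89328046 (+), IFITM3 at chr11:320811-321110 (-) and CXCL10 at chr4:76023448-76023747 (-).
IFIT1: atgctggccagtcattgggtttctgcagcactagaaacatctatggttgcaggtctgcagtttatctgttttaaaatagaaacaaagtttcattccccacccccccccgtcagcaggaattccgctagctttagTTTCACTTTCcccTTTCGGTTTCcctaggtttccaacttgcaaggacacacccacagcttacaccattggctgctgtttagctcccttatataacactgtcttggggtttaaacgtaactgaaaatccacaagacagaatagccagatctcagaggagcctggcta
IFIT3: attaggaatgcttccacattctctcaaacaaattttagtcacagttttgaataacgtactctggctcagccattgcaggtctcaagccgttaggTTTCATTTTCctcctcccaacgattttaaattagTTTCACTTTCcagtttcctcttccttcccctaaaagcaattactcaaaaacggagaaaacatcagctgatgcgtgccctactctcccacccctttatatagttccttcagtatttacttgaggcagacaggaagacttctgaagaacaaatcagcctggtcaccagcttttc
IFITM3: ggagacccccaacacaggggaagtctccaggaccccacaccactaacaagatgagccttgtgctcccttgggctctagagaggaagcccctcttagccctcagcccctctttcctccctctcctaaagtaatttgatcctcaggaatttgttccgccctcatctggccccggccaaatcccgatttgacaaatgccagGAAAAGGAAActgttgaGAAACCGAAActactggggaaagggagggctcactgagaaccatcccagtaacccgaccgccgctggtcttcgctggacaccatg
CXCL10: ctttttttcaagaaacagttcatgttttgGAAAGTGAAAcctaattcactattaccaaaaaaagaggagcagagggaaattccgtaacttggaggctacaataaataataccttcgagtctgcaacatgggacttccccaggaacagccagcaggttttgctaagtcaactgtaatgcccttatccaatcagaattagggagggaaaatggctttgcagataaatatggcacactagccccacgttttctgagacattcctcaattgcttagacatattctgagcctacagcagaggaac

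The first 3 of these genes hold 2 matches each and CXCL10 holds 1 match. The match nearest the start lies 103 bases before it in IFIT1, 122 in IFIT3, 35 in IFITM3 and 221 in CXCL10, counted from the first base of the match. Of the 11 interferon genes among the 36, 8 had a sequence and 4 of these held the core (IFIT1, IFIT3, IFIH1 and IFITM3). In the whole interferon list 28 of 49 promoters held it (57.1%), so the 8 were not richer in it than the list. Outside the interferon list 2 of 15 held it (GBP4 and ZFP36L1). Of all 27305 promoters 3.65% held it, and of 24 promoters of the genes lower in cluster 0, 1 did (RAB27A). IFIT2, OASL, CCL5, CCL2, CCN1 and NGFR had no entry.

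THBS1 and the CCN1 relative CCN2 are shown for the TEAD motif GGAATG, searched on both strands and printed in capitals. THBS1 lies at chr15:39580829-39581128 (+) and CCN2 at chr6:131951323-131951622 (-).
THBS1: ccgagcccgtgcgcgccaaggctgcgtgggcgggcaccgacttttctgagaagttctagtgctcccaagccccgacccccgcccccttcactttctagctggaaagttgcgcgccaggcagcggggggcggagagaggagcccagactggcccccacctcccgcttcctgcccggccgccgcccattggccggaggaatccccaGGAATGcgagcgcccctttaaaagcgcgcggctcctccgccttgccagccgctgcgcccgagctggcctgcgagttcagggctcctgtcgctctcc
CCN2: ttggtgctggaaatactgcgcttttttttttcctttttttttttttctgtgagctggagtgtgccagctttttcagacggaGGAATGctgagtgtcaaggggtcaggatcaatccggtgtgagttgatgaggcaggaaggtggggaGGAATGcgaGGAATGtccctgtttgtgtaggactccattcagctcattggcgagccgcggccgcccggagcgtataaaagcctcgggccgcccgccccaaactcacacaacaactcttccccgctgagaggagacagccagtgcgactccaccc

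THBS1 held 1 match and CCN2 held 3. The motif is short and common, being in 14.0% of all promoters. It was in 9 of 21 promoters of the YAP/TEAD list, in 5 of 23 of the genes higher in cluster 0 and in 9 of 24 of the genes lower there.

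Which genes set cluster 0 apart from every other cluster was described first. Cluster 0 stood above all 3 other clusters in 36 genes, led by IFIT2, OASL and CCL5, and below all 3 in 33 genes, led by LINC00520, ENTHD1 and SPP1 and including the pigment genes PMEL and RAB27A. A gene was counted when its CPM ratio passed 1.5 against each cluster, among 7120 genes with at least 20 CPM in some cluster. The 36 genes are 0.506% of those and the 33 genes 0.463%. Of the 36 genes, 17 reached 20 CPM in cluster 0 alone, IFIT2 and OASL among them, and so had to be higher there. Among the 33 genes, LINC00520, ENTHD1, SPP1 and others were under 20 CPM in cluster 0 (10.4, 6.37 and 7.22 CPM for these 3). They were counted only through other clusters, and so had to be lower than in some cluster. Just inside the limit was ZFP36L1 with a smallest ratio of 1.504, and just outside was LIMCH1 with 1.499. At the lower end GSTO1 was just inside, 1.520-fold lower, and EVA1A just outside, 1.492-fold lower.

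IFIT2, an antiviral RNA-binding protein, had the largest margin. It had 101.9 CPM in cluster 0 (98.8 to 105), 13.8 in cluster 1, 5.27 in cluster 2 and 17.8 in cluster 3. OASL, an oligoadenylate synthetase relative, had 31.0 CPM in cluster 0 (29.3 to 32.7), 3.51 in cluster 1, 4.65 in cluster 2 and 7.21 in cluster 3. Summed over the cells, both genes were lower in all 3 other clusters, primed cluster 2 included.

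CCL5 had 87.4 CPM in cluster 0 (84.6 to 90.3), 3.12 in cluster 1, 10.1 in cluster 2 and 39.9 in cluster 3. CCL2, the chemokine of monocytes, had 572 CPM in cluster 0, 44.3 in cluster 1, 116.1 in cluster 2 and 380.2 in cluster 3. Cluster 3, labelled nres, was thus the second highest for both chemokines, above primed cluster 2. The CCL2 ratio to cluster 3 fell to 1.39 with median-of-ratios size factors, a scaling by the typical gene, and so did not pass 1.5.

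CCN1 had 119.5 CPM in cluster 0, 20.8 in cluster 1, 22.9 in cluster 2 and 68.7 in cluster 3. THBS1, which encodes thrombospondin, had 137 CPM in cluster 0, 21.1 in cluster 1, 54.7 in cluster 2 and 86.8 in cluster 3. NGFR, a nerve growth factor receptor of neural crest cells, had 58.1 CPM in cluster 0, 9.39 in cluster 1, 42.5 in cluster 2 and 30.3 in cluster 3. NGFR was the only marker of the 7 given for the cluster that missed the ratio against a cluster, at 1.37 against cluster 2. The 7 marker genes lie, on hg38, at chr17:35871491-35880793 (CCL5), chr10:89283694-89309271 (IFIT2), chr12:121017763-121039246 (OASL), chr17:34255274-34257208 (CCL2), chr1:85580761-85584589 (CCN1), chr15:39581079-39599466 (THBS1) and chr17:49495293-49515008 (NGFR).

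**Figure D1:**
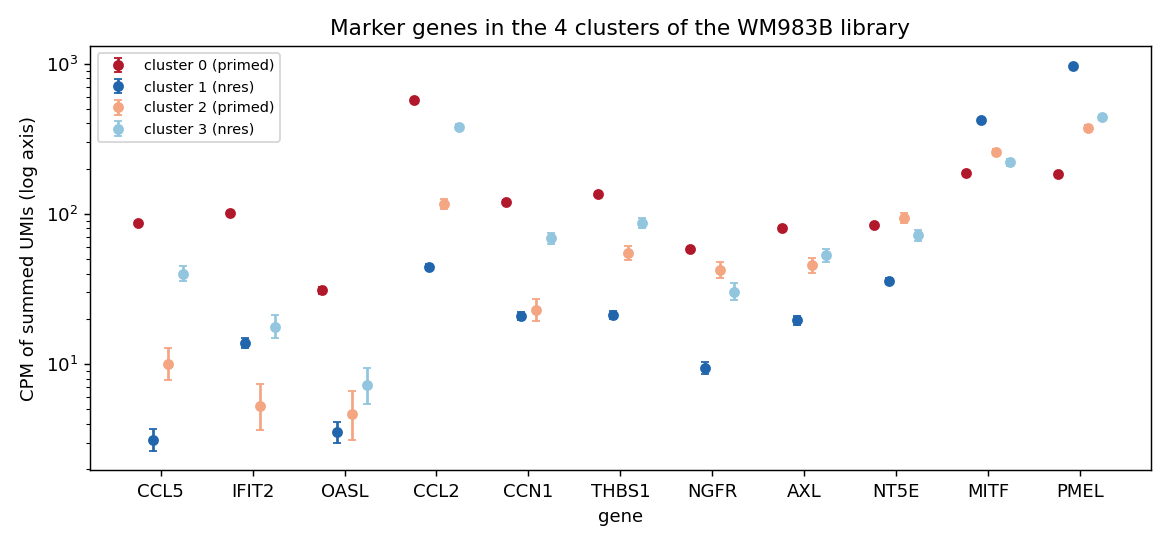
CPM of summed UMIs on a log axis for 7 marker genes, 2 further primed markers (AXL, NT5E) and 2 pigment cell genes (MITF, PMEL) in each cluster of the WM983B library, where points are sums over cells and bars exact Poisson 95% intervals of counting error. Cluster 0 is highest for the 7 markers and AXL, cluster 2 is highest for NT5E, and cluster 0 is lowest for MITF and PMEL.

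Of the 36 genes, 11 were in the interferon list. Beside IFIT2 and OASL these were IFIT3, IFIT1, OAS2, SAMD9L, XAF1, IRF1, IFITM3 and the RNA sensors IFIH1 and DDX58, with CPM between 31.0 (OAS2) and 213 (IFITM3) in cluster 0 and smallest ratios between 1.54 (IFIT1) and 1.96 (IFIT3). With size factors, and counted by ratio alone, 15 of the 36 genes no longer passed 1.5 against every cluster. The interferon genes among these were IRF1 and IFIT1 (1.45 and 1.42 against cluster 3). The interferon-induced GTPase gene GBP4, which was not in the interferon list used, had 32.9 CPM in cluster 0, 8.94 in cluster 1, 8.68 in cluster 2 and 18.2 in cluster 3. PMAIP1, which encodes the cell death protein NOXA, had 184 CPM in cluster 0, 81.1 in cluster 1, 75.8 in cluster 2 and 93.3 in cluster 3. Among genes of other roles were the receptor tyrosine kinase AXL (80.8, 19.5, 45.6 and 53.2 CPM in clusters 0 to 3), the thrombin receptor F2R (46.9, 18.5, 17.1 and 28.2 CPM), the kinase gene CDK6 (94.6, 59.5, 51.6 and 58.9 CPM, and a ratio of 1.48 to cluster 3 with size factors) and the calcineurin inhibitor RCAN1 (223, 96.2, 108 and 129 CPM). MATN2, IL4I1, NAV3, RFTN1 and IGFBP5 completed the 20 genes with the largest margins, with smallest ratios between 1.58 and 1.92.

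Among the genes below every other cluster, PMEL, the fibril protein of melanosomes, had 185 CPM in cluster 0, 969 in cluster 1, 376 in cluster 2 and 439 in cluster 3. The long noncoding RNA LINC00520 had 10.4 CPM in cluster 0, 44.1 in cluster 1, 51.8 in cluster 2 and 35.4 in cluster 3. The secreted stress factor GDF15 had 47.1, 202, 153 and 104 CPM in clusters 0 to 3. SPP1, which encodes osteopontin, had 7.22, 47.0, 20.6 and 21.0 CPM. ENTHD1, LHFPL3-AS1, SLAMF7, VEPH1, CHCHD6 and APOC1 were the others of the 10 lowest, each more than 2-fold below every other cluster. No gene of the interferon list was among the 33.

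The lists of pathway genes were then counted against each cluster in turn. Against cluster 1, 313 genes were higher (4.4%) and 187 lower (2.63%), against cluster 2, 257 were higher (3.61%) and 250 lower (3.51%), and against cluster 3, 270 were higher (3.79%) and 69 lower (0.969%). The median log2 ratio of all genes tested was 0.01, 0.03 and 0.12, and the last value means that ratios to cluster 3 sit slightly high throughout. With median-of-ratios size factors, which remove such a shift, 105 genes were higher than in cluster 3 and 114 lower. In the lists below, only members with at least 20 CPM in some cluster were counted, and a member that reached this through cluster 0 alone had to differ.

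Of 60 interferon-stimulated genes, 44 were counted, and 18 of these were higher than in cluster 1, 14 than in cluster 2 and 15 than in cluster 3, with 1 lower than in cluster 2. Their median log2 ratios were 0.49, 0.38 and 0.37. The 3 members with the most CPM in cluster 0 were IFI6, ISG15 and BST2. IFI6 and BST2 had ratios to cluster 1 of 1.14 and 1.19. The ubiquitin-like modifier ISG15 had 699 CPM in cluster 0, 420.1 in cluster 1, 534 in cluster 2 and 587 in cluster 3. The spread of ratios among the 44 counted genes was therefore wide, from 0.887 (PLSCR1) to 8.82 (OASL) against cluster 1.

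Ligands, receptors and further sensors of the pathway were in a list apart from IFIH1 and DDX58. Of 27 listed, 26 were in the table, 11 were counted and none was past 1.5 in either direction against any cluster. With 4.4% of all genes higher and 2.63% lower than in cluster 1, so few genes would hold less than 1 call at the background share, and nothing is read from this count. The interferon receptor gene IFNAR1 had 103 CPM in cluster 0, 92.1 in cluster 1, 116 in cluster 2 and 81.8 in cluster 3. No UMI of the interferon gene IFNB1 was found in the library. IFNL1 had 4 UMIs, all of them in cluster 0.

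Chemokine and cytokine genes showed high ratios to cluster 1. Of 35, 7 were counted, and 6 were higher than in cluster 1, 3 than in cluster 2 and 4 than in cluster 3, with 1 lower than in cluster 2. CXCL8, a neutrophil chemokine, had 175 CPM in cluster 0, 23.3 in cluster 1, 159 in cluster 2 and 112 in cluster 3. LIF, a cytokine of the IL-6 family, had 68.4, 21.8, 258 and 42.0 CPM in clusters 0 to 3, so that primed cluster 2 was highest.

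Of 28 YAP/TEAD targets, 19 were counted, and 11 were higher than in cluster 1, 7 than in cluster 2 and 6 than in cluster 3, with 1 lower than in cluster 2. CCN1, AXL, CRIM1 and THBS1 were higher than in all 3, but with size factors only CCN1 stayed past 1.5 against cluster 3 (1.61), where AXL had 1.40, CRIM1 1.44 and THBS1 1.45. Of 26 matrix and mesenchymal genes counted out of 44, 12, 4 and 6 were higher than in clusters 1, 2 and 3 and 2, 5 and 2 were lower. The collagen cross-linking enzyme gene LOXL2 had 29.4, 10.3, 14.3 and 18.8 CPM in clusters 0 to 3 and was higher than in all 3, but not with size factors (1.44 against cluster 3). Of 18 TGF-beta and activin genes counted out of 35, 10, 2 and 3 were higher and 0, 3 and 0 lower. INHBA, an activin subunit, had 48.3 CPM in cluster 0, 4.55 in cluster 1, 114 in cluster 2 and 28.6 in cluster 3, so cluster 0 lay between the nres clusters and the other primed cluster.

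Of 22 melanocytic genes counted out of 28, none was higher than in cluster 1 and 12 were lower. Against cluster 2 there were 2 higher and 6 lower, and against cluster 3 none higher and 6 lower. PMEL and RAB27A were lower than in all 3. MITF, the master regulator, had 188 CPM in cluster 0, 419.7 in cluster 1, 258 in cluster 2 and 220.3 in cluster 3, while the neural crest factor SOX10 had 192, 215, 187 and 162 CPM. MLANA, a melanosome antigen, had 2.27 CPM in cluster 0, 65.2 in cluster 1, 3.26 in cluster 2 and 25.8 in cluster 3. DCT, a pigment enzyme, had its lowest level in cluster 2, with 97.1 CPM in cluster 0 and 21.5 in cluster 2 against 466 in cluster 1 and 158 in cluster 3. The deposited score of epithelial-mesenchymal transition genes, between 0 and 1, averaged 0.158 ± 0.0136 in cluster 0 (SD over cells), 0.136 ± 0.00980 in cluster 1, 0.163 ± 0.0177 in cluster 2 and 0.148 ± 0.00781 in cluster 3.

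**Figure D2:**
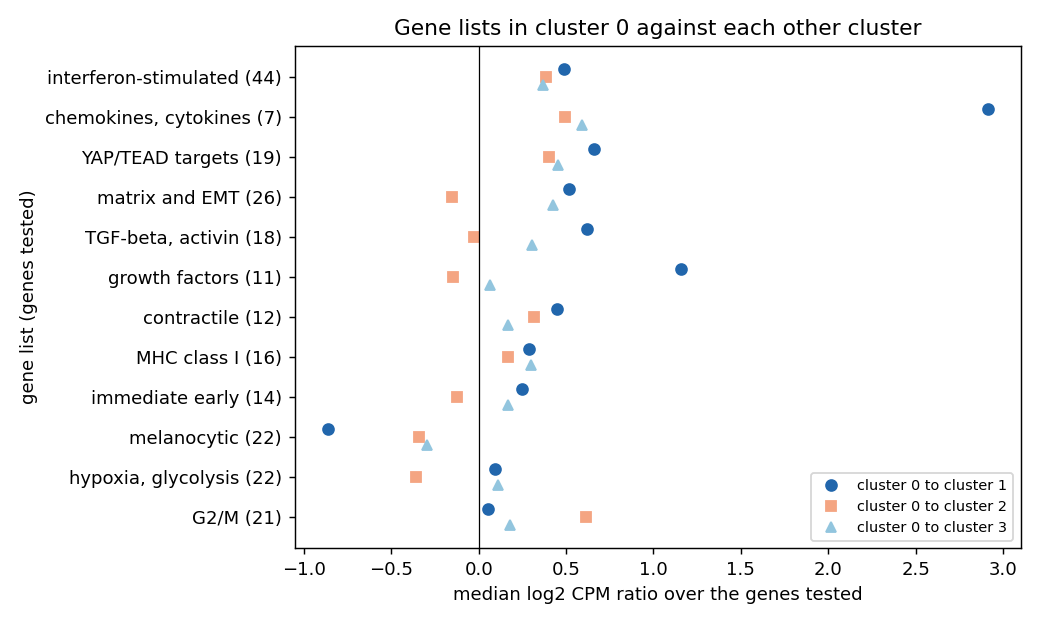
Median log2 CPM ratio of cluster 0 to clusters 1, 2 and 3 over the counted genes of 12 lists, with the number counted beside each name. Interferon, chemokine and YAP/TEAD lists lie above 0 against all 3 clusters, the melanocytic list lies below 0, and the matrix, TGF-beta and growth factor lists lie above 0 against clusters 1 and 3 and below 0 against cluster 2. Against cluster 3 the median of all genes tested was 0.12, and the growth factor list (0.07) lies below that median.

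Defining markers of leukocytes and endothelial cells were at or near 0, while single genes listed for other cell types were expressed in all 4 clusters. Summed CPM over 20 leukocyte markers was 58.7 in cluster 0, 60.0 in cluster 1, 120.3 in cluster 2 and 60.5 in cluster 3, of which CD68 and LYZ made 31.9 and 20.3 CPM in cluster 0. PTPRC had 0.0472 CPM, and CD3D, CD3E, CD2, CD4, MS4A1 and TYROBP had no UMI in cluster 0. Over 8 endothelial markers the sums lay between 1.27 and 4.65 CPM. Of 10 fibroblast markers LUM made 79.3 of 96.6 CPM in cluster 0, and of 8 keratinocyte markers KRT10 made 157 of 161 CPM. No cell type that should lack CCL5 was found in the library to give a background share from free RNA, so shares in cluster 1 are given beside those of cluster 0.

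How evenly the marker genes were spread over the cells of cluster 0 was described next. They fell into a group held by few cells and a group found in most cells. After thinning, an IFIT2 UMI was found in 24.8% of the 640 cells (159 cells, Clopper-Pearson 95% interval 21.5 to 28.4), against 35.9% without thinning. The 10% of cells with the most IFIT2 held 94.8% of its UMIs, and the highest cell held 450 of its 30000 UMIs. In clusters 1, 2 and 3 an IFIT2 UMI was found in 14.6%, 15.4% and 30% of cells (20.8 to 40.6 in cluster 3), with highest cells of 48, 2 and 4 UMIs. An OASL UMI was found in 17.8% of cells (26.9% without thinning), and the top 10% of cells held 90.8% of its UMIs. The shares were 7.01%, 14.3% and 23.3% in clusters 1, 2 and 3 (15.1 to 33.4 in cluster 3). For both genes the share of cells was lower in cluster 0 than in cluster 3, with overlapping intervals that cover only the sampling of cells of 1 library. The higher CPM of cluster 0 thus came without a higher share of cells than in cluster 3.

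CCL5 was about as uneven. The top 1% of cells held 51.7% of CCL5, 56.8% of IFIT2 and 56.9% of OASL UMIs. A CCL5 UMI was found in 15.8% of cluster 0 cells (101 cells, 20.5% without thinning), the top 10% held 97.9% of the UMIs and the highest cell held 303. In cluster 1 it was found in 3.66% of cells and in cluster 2 in 7.69%. In cluster 3 it was found in 56.7% of cells, with a highest cell of 21 UMIs and 43.0% of the UMIs in the top 10% of cells. The median cell of cluster 0 held no CCL5 UMI and the median cell of cluster 3 held 1, so the higher level of cluster 0 came with a smaller share of cells than in cluster 3.

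The other markers were in most cells. CCL2 was found in 89.5% of cluster 0 cells with a median of 6 UMIs, against 51.4% in cluster 1, 64.8% in cluster 2 and 100% in cluster 3. AXL was found in 79.1% (38.9%, 65.9% and 73.3% in clusters 1 to 3), THBS1 in 78.1% (36.6%, 67.0% and 86.7%) and NGFR in 62.2% (18.6%, 56.0% and 60.0%). The top 10% of cells held 31.7% of the AXL, 40.6% of the NGFR, 47.0% of the THBS1, 54.7% of the CCL2 and 55.6% of the CCN1 UMIs. CCN1 was the least widespread of these genes, with all of its UMIs in 56% of the cells. PMEL and MITF had medians of 4 UMIs in cluster 0 against 23 and 12 in cluster 1, so the lower pigment genes were seen in the median cell too.

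**Figure D3:**
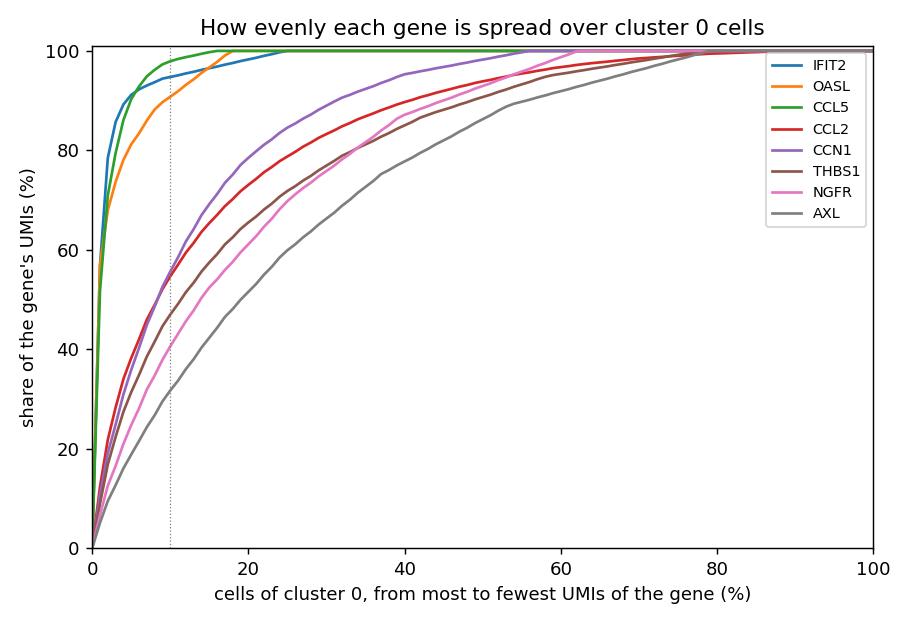
Share of a gene's thinned UMIs (%) against the share of cluster 0 cells (%), ordered from the cell with most UMIs, for 8 genes; the dotted line marks 10% of cells. IFIT2, OASL and CCL5 reach 94.8%, 90.8% and 97.9% at that line, while CCL2, CCN1, THBS1, NGFR and AXL lie between 31.7% and 55.6%.

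When the 10% of cells with the most CPM were left out, gene by gene and in every cluster, 8 of the 36 higher genes stayed above every other cluster (0.112% of the genes tested were called so) and 31 of the 33 lower genes stayed below (0.815%). The 8 were MATN2, LINC00472, IL4I1, RFTN1, OAS2, ZNF618, IFITM3 and NFE2L3. Of these, 6 were under 20 CPM in every other cluster before any cell was left out (IFITM3 and NFE2L3 were not), so the count is given as a description. All 33 lower genes were in a smaller share of cells in cluster 0 than in each other cluster. The top 10% of cluster 0 cells held a median of 50.6% of their UMIs, against 45.3% for the 36 genes. Leaving out upper cells takes more from a cluster where a gene is in few cells. The count of 31 is therefore a description too, and does not show that the lower genes are more evenly spread. Without the upper cells, 34 of the 36 were higher than in cluster 1 (4.51% of the genes tested were, and 3.76% lower), 31 than in cluster 2 (4.21% higher, 5.22% lower) and 8 than in cluster 3 (2.54% higher, 2.64% lower). IFIT2 then had 5.78 CPM in cluster 0, 2.49 in cluster 1, 2.72 in cluster 2 and 14.1 in cluster 3. CCL5 had 2.48, 0, 0.475 and 27.2 CPM, and CCL2 had 315, 22.9, 59.5 and 363 CPM. With the upper cells left out, cluster 3 was thus above cluster 0 in these 3 genes and clusters 1 and 2 were below it. Over the lists, 2 interferon genes were then higher than in cluster 3 and 4 lower, in place of 15 and 0. Of the chemokine list 0 were higher and 3 lower, in place of 4 and 0, and of the YAP/TEAD list 0 and 1, in place of 6 and 0. Against cluster 1 the counts were 16, 6 and 12 higher and 0 lower. Cluster 3 had 87.8% of its cells called G2M by the authors and the greatest depth, and the part of either in this order was not tested. The list of G2M genes followed the phase calls against cluster 2 but not against cluster 3. Cluster 2 had 20.9% of cells called G2M and cluster 0 had 32.3%. Of the 21 genes counted, 12 were higher in cluster 0 than in cluster 2 and none lower (median log2 ratio 0.62). Over all genes tested, 3.61% were higher and 3.51% lower than in cluster 2. Of 21 counted, 1 was higher and none lower in cluster 0 than in cluster 3 (median log2 ratio 0.18), though 6 were lower without the upper cells, and the summed CPM of the list was 3944 in cluster 0 and 3498 in cluster 3.

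**Figure D4:**
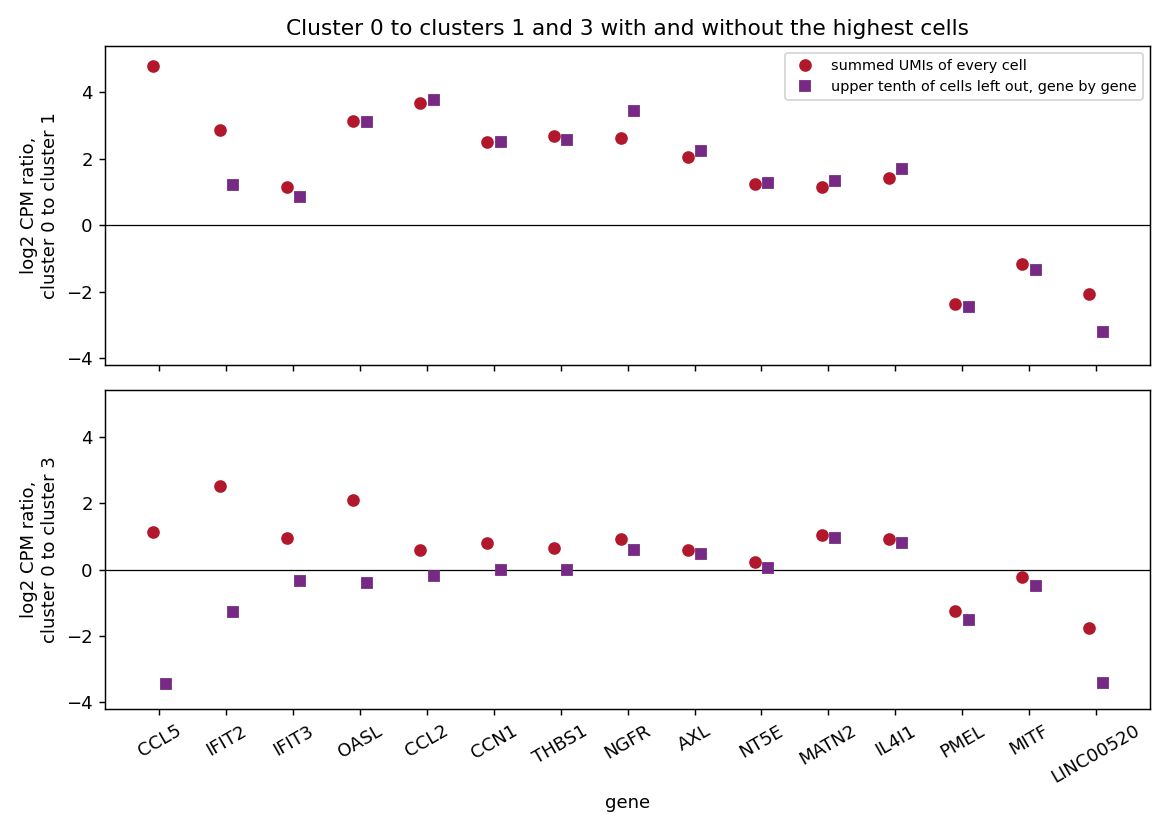
Log2 CPM ratio of cluster 0 to cluster 1 (upper panel) and to cluster 3 (lower panel) for 15 genes, with every cell (circles) and with the 10% of cells with the most CPM left out gene by gene in each cluster (squares); CCL5 has no square against cluster 1, where its CPM was then 0. Against cluster 1 the ratios keep their direction, and against cluster 3 those of CCL5, IFIT2, IFIT3, OASL and CCL2 fall below 0 while MATN2, IL4I1, NGFR and AXL stay above and PMEL, MITF and LINC00520 stay below.

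High levels of CCL5 and of the IFIT genes that the cluster was named for were thus held by a minority of the 640 cells. A sum of thinned UMIs of IFIT1, IFIT2, IFIT3 and OASL had a median of 2 in cluster 0, 1 in cluster 1, 2 in cluster 2 and 4 in cluster 3. The highest cell had 921 in cluster 0, 215 in cluster 1, 11 in cluster 2 and 23 in cluster 3. At least 30 UMIs were found in 27 cells of cluster 0, in 8 of cluster 1 and in none of the other 2 clusters. In cluster 0, 25 cells lay between 20 and 40. By this sum the cells form a range with a long upper end, and whether the highest cells are a separate class was not tested.

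The 32 cluster 0 cells with the highest sum (at least 28 UMIs, 5% of the cluster) held 65.2% of its UMIs. They were chosen by these values, so what follows describes them. By the authors' phase calls 12 were in G1, 10 in S and 10 in G2M. Their median depth was 64576.5 UMIs against 63034 in the other 608 cells, and their median share of mitochondrial reads was 5.95% against 8.15%. Outside the 4 genes of the sum, 284 of 7007 genes were over 1.5 times higher in them than in the other 608 cells (4.05%) and 85 were lower (1.21%). Of the interferon list 43 of 51 counted genes were higher, and 11 of the 43 reached 20 CPM in the 32 cells alone, so that they had to be. Of 19 YAP/TEAD targets 1 was higher and 1 lower, and of 18 melanocytic genes 4 were higher and 1 lower.

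The 5 genes with the largest ratios were CXCL10, RSAD2, CH25H, IDO1 and CXCL11. Like others of the 284 genes, each of the 5 reached 20 CPM in the 32 cells alone and so had to be higher there. CXCL10, a chemokine of T cells, had 315 CPM in the 32 cells (292 to 339.9) and 0.621 CPM in the other 608, and it was found in 1.88% of all cluster 0 cells after thinning. RSAD2, which encodes the antiviral protein viperin, had 223 and 3.38 CPM. CH25H, a cholesterol hydroxylase, had 86.2 and 1.32 CPM, IDO1, a tryptophan-degrading enzyme, had 54.8 and 0.944 CPM, and the CXCL10 relative CXCL11 had 141 and 4.05 CPM. PMAIP1 had 1282 and 125 CPM and ISG15 3040.5 and 575 CPM. CCL5 had 537 CPM in the 32 cells and still 63.5 CPM in the other 608, against 3.12 CPM in cluster 1. CCL2 went the other way, with 423 and 580.2 CPM. NGFR, AXL and NT5E had 44.5, 83.4 and 78.7 CPM in the 32 cells and 58.8, 80.7 and 84.5 CPM in the rest. The primed marker EGFR was low throughout, with 2.81 CPM in the 32 cells, 3.35 in the rest and 2.22 in cluster 1.

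The cells highest in CCL5 overlapped in part with these. Its top 32 cells held 90.3% of its UMIs in cluster 0, and 6 of them were among the 32 cells with the highest interferon sum. Of the 101 cells with a CCL5 UMI, 18 were among those 32, so a CCL5 UMI was more frequent in the 32 cells than in the cluster as a whole (15.8%). The 608 other cells had 10.9 CPM of IFIT2, 67.1 of IFIT3 and 8.45 of OASL. These values are not comparable with cluster 1, which keeps its own highest cells. With the upper 10% of cells left out of both, IFIT2 had 5.78 CPM in cluster 0 and 2.49 in cluster 1, IFIT3 50.5 and 27.9 CPM, and OASL 3.36 and 0.390 CPM, so cluster 0 was higher in each. For genes outside the sum, the 608 cells were above the whole of cluster 1 by 13.1-fold for CCL2, 6.59-fold for THBS1, 6.27-fold for NGFR, 5.63-fold for CCN1 and 4.13-fold for AXL.

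The genes most like CCL5 over the 640 cells were described by Spearman's rho of thinned UMIs, among genes with a mean of at least 0.5. They were PLAAT4 (0.37), GBP4 (0.33), B2M (0.32), OASL (0.30), IFIH1 (0.28), APOL1 (0.26), CTSS (0.25), HERC5 (0.25), PMAIP1 (0.25) and TFPI2 (0.25). The points are cells of 1 library with many zeros, so these values are weak descriptions. CCL2, THBS1 and CCN1 formed another set, with rho of 0.38 for CCL2 and THBS1, 0.41 for CCN1 and THBS1 and 0.44 for CCN1 and CCN2. Across the sets the values were near 0, at 0.07 for CCL5 and CCL2, 0.02 for CCL5 and CCN1 and -0.03 for IFIT2 and THBS1. MITF ran against CCL2 (-0.32), CCN1 (-0.29) and NGFR (-0.24).

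Cell cycle phases, as called by the authors, had overlapping intervals in clusters 0 and 1. Cluster 0 had 35.6% of cells in G1 (31.9 to 39.5), 32.0% in S and 32.3% in G2M, and cluster 1 had 32.5% (28.8 to 36.3), 33.3% and 34.2%. Cluster 2 had 52.7% in G1 and cluster 3 had 4.44%. CCL5 and IFIT2 were higher than in cluster 1 in each phase, but the order of CCL5 and CCL2 against cluster 3 changed with the phase. CCL5 had 124 CPM in G1, 80.6 in S and 62.7 in G2M cells of cluster 0, against 3.21, 1.43 and 4.63 CPM in cluster 1. IFIT2 had 156, 101.4 and 56.2 CPM against 14.8, 8.40 and 18.2 CPM. Among cells called G2M, 79 of the 90 in cluster 3, CCL2 was lower in cluster 0 than in cluster 3 (316 and 398 CPM), while CCL5 (62.7 and 35.8 CPM) and IFIT2 (56.2 and 19.1 CPM) were higher. In S, CCL5 was lower than in cluster 3 (80.6 and 98.9 CPM), which has only 7 such cells. AXL went the other way over the phases, with 67.9 CPM in G1 and 106 CPM in G2M cells of cluster 0. The top 1% of cluster 0 cells held 51.7% of the CCL5 and 56.8% of the IFIT2 UMIs. The order of these 2 genes over the phases may therefore rest on a few cells, which was not tested.

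Values of the same genes in WM989 were set beside these. The 36 and 33 genes were chosen in WM983B, so WM989 values are a separate measurement of them. In untreated WM989 cells, genes were counted when primed and drug-susceptible cells differed by over 1.5-fold in r1 and in r2. By the study's methods, a mixed well and a well sorted for high EGFR and NGFR were each divided over 2 chip wells, so r1 and r2 may be loadings of the same cultures and not biological replicates. Of the 36 genes, 23 reached 20 CPM in some WM989 group, and 18 of these were higher in primed cells and 3 lower, where 15.2% of 6627 genes were higher and 12.8% lower. Of the 33 lower genes 23 were counted, and 16 were lower and 3 higher. Of the 18, 14 reached 20 CPM through primed cells alone and so had to be higher, while IFIT3, IGFBP5, IFITM3 and ZFP36L1 reached it in drug-susceptible cells too. Of the 16, 2 reached it through drug-susceptible cells alone (RLBP1 and SLC27A3). The count of 18 is therefore not read against the background. Genes under 20 CPM were not counted, among them MATN2, GBP4 and CCN1.

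CCL5 had 47.8, 13.0 and 15.6 CPM in WM989 primed clusters 2, 8 and 9 and 0.206 CPM in drug-susceptible cells. Primed and drug-susceptible cells had 33.3 and 0.125 CPM in r1 and 34.8 and 0.337 CPM in r2. IFIT2 had 24.0 and 9.90 CPM in r1 and 38.4 and 5.57 CPM in r2. AXL had 24.1 and 0.168 CPM in r1 and 61.3 and 0.955 CPM in r2. These were higher in primed cells in both, while CDK6, RCAN1 and PLK2 went the other way. RCAN1 had 36.1 and 63.2 CPM in r1 and 43.3 and 70.2 CPM in r2. SPP1, low in cluster 0, had 485 and 4.79 CPM in r1 and 462 and 11.3 CPM in r2, and so was on the primed side in WM989.

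Shares of cells were compared between the lines. With cells thinned to 10000 UMIs, CCL5 was found in 10.9% of cells of WM983B cluster 0 and 1.75% of cluster 1, in 9.70%, 6.79% and 5.79% of WM989 primed clusters 2, 8 and 9 and in 0.145% of drug-susceptible cells. IFIT2 was found in 13.0% of cluster 0 cells and 6.21% of cluster 1 cells, in 8.82%, 5.21% and 3.22% of those primed clusters and in 3.15% of drug-susceptible cells. NT5E was found in 53.8% and 29.1%, and in 75.1%, 73.5% and 80.9% of the WM989 primed clusters. IFIT3 was more widespread than IFIT2, in 42.2% of cluster 0 and 27.7% of cluster 1 cells, in 28.4%, 17.2% and 19.0% of those primed clusters and in 10.5% of drug-susceptible cells. In WM983B primed cluster 2, CCL5 was found in 3.30% of cells, IFIT2 in 5.49%, IFIT3 in 30.8% and NT5E in 56.0%. In nres cluster 3 the shares were 26.7%, 16.7%, 53.3% and 53.3%. Within WM983B, the shares of CCL5, IFIT2 and IFIT3 thus did not follow the primed label. CCL5 and IFIT2 were therefore in fewer primed cells than NT5E in both lines, with IFIT3 in between.

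Cluster 12 of the WM989 treatment experiment was high in many interferon genes and PMAIP1 but not in CCL2, AXL or THBS1. Its 114 cells were labelled drug-susceptible and came from every treatment, with 36 Control, 23 TGFB1, 38 TGFBRi and 17 PI3Ki cells. IFIT2 had 810.0 CPM in it and 3.18 CPM in the other 39907 cells, IFIT3 1185 and 9.76 CPM, and PMAIP1 1009 and 40.3 CPM. CCL5 had 10.4 CPM (21 UMIs) and 0.707 CPM, and CCL2 had no UMI in the cluster. AXL had 3.46 and 3.73 CPM and THBS1 9.39 and 11.8 CPM. Of the 36 genes, 16 were counted and 12 were higher in cluster 12, against 2.74% of 5847 genes (1.88% were lower), among them all 8 counted interferon genes and 4 of the 8 others. Of the 12 genes, 9 reached 20 CPM in cluster 12 alone and so had to be higher, while PMAIP1, RCAN1 and IFITM3 passed it in the other cells too. The 4 others were PMAIP1, APOL6 (38.5 and 5.02 CPM), RCAN1 (95.9 and 57.0 CPM) and NFE2L3 (22.2 and 13.3 CPM). Of the whole interferon list 30 genes were counted and 22 were higher, some of them through cluster 12 alone. IFI6 (51.9 and 42.1 CPM) and EIF2AK2 (92.9 and 94.2 CPM) were among those not higher. XAF1, which was not counted, had no UMI in cluster 12. The primed marker NT5E was higher too, at 42.5 and 25.5 CPM, as was CCN2 at 32.6 and 11.5 CPM. PMEL had 2409 and 2556 CPM and MITF 225 and 320 CPM.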

How the data were processed

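UMI counts per gene and cell were deposited by the authors, who made them with Cell Ranger on hg38 (version not given in the sources used here) and removed cells in Seurat V3 with few genes, with many genes (likely doublets) or with many mitochondrial reads. Deposited WM983B cells held 7001 to 9999 genes. Clusters, state labels and phases (from cell cycle scores) were used as deposited by the authors, as were the percent of mitochondrial reads and the UCell score, a fraction between 0 and 1. No doublet caller was run. UMIs were summed per cluster and scaled to CPM in Python 3.11.15 (numpy 2.4.6, scipy 1.17.1, pandas 2.3.3), with a ratio of 1.5 and a minimum of 20 CPM. Ratios used a floor of 3 counts per group. Clusters were called anew with scanpy 1.11.5. Cells were thinned at random to 30000 UMIs, or to 10000 across lines. The calling code was run on simulated counts with counting error only. Such counts do not vary between cells, so the run is no check of genes held by few cells. Untreated WM989 lists CCN1 as CYR61.

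The cluster, gene lists and tests were chosen with earlier results of these data known. Genes named were the 7 markers, the 20 highest and 10 lowest by ratio, list members past 1.5-fold against every cluster or with the most CPM, primed markers and the 10 genes most like CCL5. Other genes were named after their values were seen, among them CXCL10, RSAD2, CH25H, IDO1, CXCL11, MLANA, DCT, INHBA, LIF, CXCL8, PLSCR1, IFNAR1, APOL6 and CCN2. Alternatives were other size factors, CPM minimums, a larger fold, thinned or G1 cells, new clusters and leaving out the highest cells or cluster 3. ATAC-seq peaks of WM989 were not used here.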

Additional observations from a re-analysis of the deposited data

How the results depend on the processing

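No paired analysis was possible because WM983B has 1 library, and for the same reason no replicate could be left out. Of 36 genes higher and 33 lower than in every other cluster, there were 19 and 38 with median-of-ratios size factors, 59 and 13 with only G1 cells (4 such cells in cluster 3), 19 and 19 with a minimum of 50 CPM, 90 and 74 with a minimum of 5 CPM, and 3 and 10 at a fold of 2. The size factor counts applied the 20 CPM minimum anew to the rescaled values, unlike the count by ratio alone given above. With 2 settings chosen after seeing the data, there were 8 and 58 without the upper 10% of cells, and 92 and 58 without cluster 3. Clusters called anew gave 38 and 18, of which 7 and 2 were among the original genes. The new cluster nearest to cluster 0 held 51.25% of its cells (adjusted Rand index 0.148), so the gene counts depend on the authors' partition. IFIT2, IFIT3 and OASL had 21.4, 72.7 and 6.62 CPM in that cluster and 117, 153 and 32.8 CPM in another of the new clusters, which was the highest for all 3. For genes higher and lower than in clusters 1, 2 and 3 in turn, a minimum of 50 CPM gave 165 and 98, 120 and 135, and 116 and 40, a minimum of 5 CPM gave 633 and 351, 626 and 498, and 733 and 159, and a fold of 2 gave 131 and 58, 63 and 75, and 13 and 26. Against cluster 3, size factors gave 105 and 114, thinning gave 466 higher, G1 cells gave 1926 and 721, and leaving out the upper 10% of cells gave 188 lower. Against cluster 2, G1 cells gave 599 higher. New clusters gave 206 and 624 against cluster 1 and 307 lower against cluster 3. The NGFR ratio to cluster 2 turned to 0.878 in G1 cells. Without the upper 10% of cells, ratios to cluster 3 turned to 0.0910 for CCL5, 0.409 for IFIT2, 0.762 for OASL, 0.868 for CCL2, 0.994 for CCN1 and 0.998 for THBS1. Beyond changes in cells or genes counted, the cause was not tested.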
